A study of Mus musculus with 109 samples.

Results

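Lungs of wild-type mice of the strain NZWLacJ were compared with lungs of wild-type C57BL6 mice, both after 6 months of cigarette smoke. The comparison took the arrays labelled wild type and smoke, all 28 of C57BL6 and 5 of the 6 of NZWLacJ, 1 NZWLacJ array being left out for its values, which gave 33 arrays beside 76 others in the series. Per the labels, the animals breathed mixed main-stream and side-stream smoke from research cigarettes on 5 days a week, and their controls breathed filtered air. The air groups of the same strains, 7 of 8 NZWLacJ arrays and 22 C57BL6 arrays, served to ask whether a strain difference was also present without smoke. None of these 4 groups carries an engineered allele. The labels give no age or sex, and nothing in them says that each array is a separate animal, so a p-value reflects only how far these samples spread. The titles of the NZWLacJ arrays carry the name C57, and the grouping follows the strain label instead. The strains are called NZW and C57 from here on.

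C57BL/6 is the strain of the mouse reference genome, and NZW (New Zealand White) is the inbred strain known as one parent of a lupus-prone hybrid. C57BL/6 mice are known not to make the MHC class II chain H2-Ea, so its transcript marks a strain of another haplotype. Cyp1b1 is a cytochrome P450 that the aryl hydrocarbon receptor (AhR) switches on when smoke constituents bind it, so it marks exposure. Each probe of the array is a short DNA strand, and a base that differs under a probe between strains can change its signal with no change in the amount of transcript. Genes with several kept probes are therefore given with the differences at their other probes, or with the range over them. Signals are neqc-normalized log2 intensities, and a difference of 1 on this scale is a factor of 2. In these whole-lung samples, fewer cells of a type and less RNA per cell cannot be told apart.

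The strain marker came first. H2-Ea read 11.59, 11.06, 11.68, 11.77 and 9.09 on NZW smoke replicates 1, 2, 3, 4 and 6, while the C57 smoke arrays ran from 4.28 to 8.03 with a median of 4.44. The 5 NZW arrays lay above all 28 C57 arrays, by 6.45 ± 0.24 (SE) on average, and the probe was detected on 1 C57 smoke array. Because the sixth NZW array was left out for a low value at this and similar probes, that separation is a description and not a test. With every array kept under its label the difference was 5.4 with a limma adjusted p of 5.26e-20. Cyp1b1 read 12.49, 13.06, 12.58, 11.34 and 10.48 on the NZW arrays, against a C57 smoke range of 6.56 to 11.63 with a median of 10.33. It was higher under smoke than in air in both strains, by 2.96 in C57 with an adjusted p of 1.16e-15 and by 4.4 in NZW with 1.55e-08. The strain difference in Cyp1b1 under smoke was 2.09 ± 0.46 with an adjusted p of 5.1e-05, and the groups overlapped, since NZW replicates 4 and 6 lay inside the C57 range. C57 smoke replicates 21, 22 and 27 read 6.87, 6.56 and 7.4, inside the C57 air range of 6.08 to 7.75, and they are part of the C57 mean. With every array kept under its label the Cyp1b1 difference was 1.32 with an adjusted p of 0.0128. The NZW smoke array that was left out read 7.38 for Cyp1b1, inside the C57 air range. The NZW air array that was left out read 9.36, against at most 8.74 on the other NZW air arrays. Whether the exposure labels of these arrays are right was not tested.

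Some arrays stood apart. The array left out of the NZW smoke group, replicate 5, read 4.74 for H2-Ea and 11.06 for Fcer1g, and the array left out of the NZW air group, also replicate 5, read 4.37 and 10.6, values of the C57 kind at the probes that separate the strains. They were left out because of such values, so those probes are no independent evidence for that choice, and the size of the difference at such probes depends on it. With both arrays kept, Fcer1g was -6.02 and Psca 4.12. NZW smoke replicates 1 to 4 and NZW air replicates 3 and 4 carry the consecutive sample numbers 36 to 41, and replicate 6 of the smoke group carries 61. No label calls the consecutive numbers a batch, and no C57 smoke array is among them. NZW air replicate 6 read 8.08 for Fcer1g, between the other NZW air arrays, at 4.33 to 5.61, and the C57 air arrays. C57 smoke replicate 6 was the array with the H2-Ea value of 8.03, against at most 4.99 on the others. That C57 array also lay toward NZW for Psca (6.35 against at most 5.37), Avpr1a (7.38 against at most 6.68) and Sspn (9.92 against at least 10.2). Its values for Fcer1g (11.18), Zfp330 (10.55) and a probe of H2-Ab1 (13.41) lay among the others, and Adh7 (11.49) lay away from NZW. Between 45.1% and 50.5% of probes were detected on the NZW smoke arrays used, and median raw intensities there ran from 71.7 to 113.5.

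**Figure D1:**
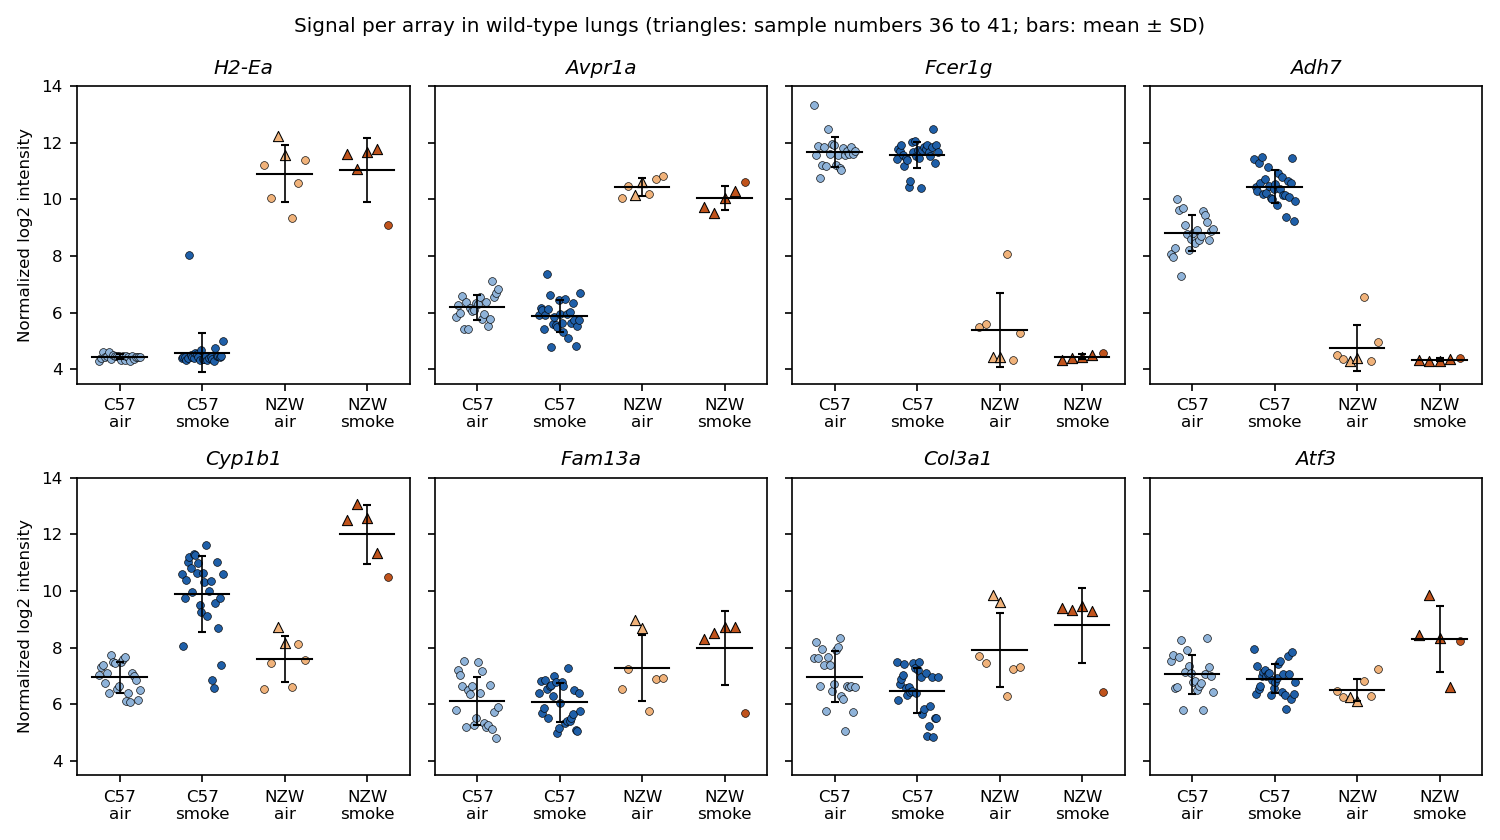
Normalized log2 intensity (vertical axis) of the brightest probe of 8 genes on each array of the 4 wild-type groups, with the mean and SD of each group. Triangles are the NZW arrays with sample numbers 36 to 41; H2-Ea and Avpr1a are high and Fcer1g and Adh7 low on all NZW smoke arrays, while for Fam13a and Col3a1 NZW smoke replicate 6, at 5.68 and 6.42, lies among the C57 arrays.

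The strain difference was broad. Of 15540 probes kept, 8851, or 57%, passed an adjusted p of 0.05 under smoke, 4186 (26.9%) higher in NZW and 4665 (30%) lower. By the brightest probe of each gene the count was 5970 of 10555 genes (56.6%), with 29.5% higher and 27.1% lower. At 1066 probes (6.86%) the 5 NZW and 28 C57 arrays did not overlap, 377 (2.43%) with NZW higher and 689 (4.43%) with NZW lower, and the same held for 6.92% of genes, 2.86% higher and 4.05% lower. A count of called genes in a list has to be read against these shares. The share without overlap depends in part on leaving out the NZW smoke array with C57-like values at such probes. Lack of overlap is therefore a description and not a test. Another fit added a term for the arrays numbered 36 to 41. That term is estimated from arrays inside and outside the run in both NZW groups, air and smoke. Under smoke, replicate 6 is the only NZW array used that lies outside the run, so values under the term depend in part on it. The fit with the term called 4357 probes (28%), 2367 higher in NZW and 1990 lower, and, by the brightest probe, 29.1% of genes. List counts under the term have to be read against that 29.1%, which covers both directions. Replicates 1 to 4 all lay on the same side of the C57 smoke range at 2742 probes, and at 1633 of these replicate 6 lay inside the range. Counts for gene lists are therefore given with those under that term, and the genes whose call was lost under it are named with both values where they are described.

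In air, with no array in common, 7062 probes (45.4%) differed between the strains. Counts of list members in air have only this share over probes beside them. Of the probes called under smoke, 5967 were called in air in the same direction, 67.4% of the smoke calls and 84.5% of the air calls, and 15 were called in the opposite direction. Of the 1066 probes whose groups did not overlap under smoke, 1039 were called in air in the same direction and none in the opposite, and 984 were called with the term for the consecutive arrays. The last count is no independent check. All these probes have replicate 6 outside the C57 range, and replicate 6 also enters the term. The air counts depend in part on leaving out the NZW air array with C57-like values at such probes.

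**Figure D2:**
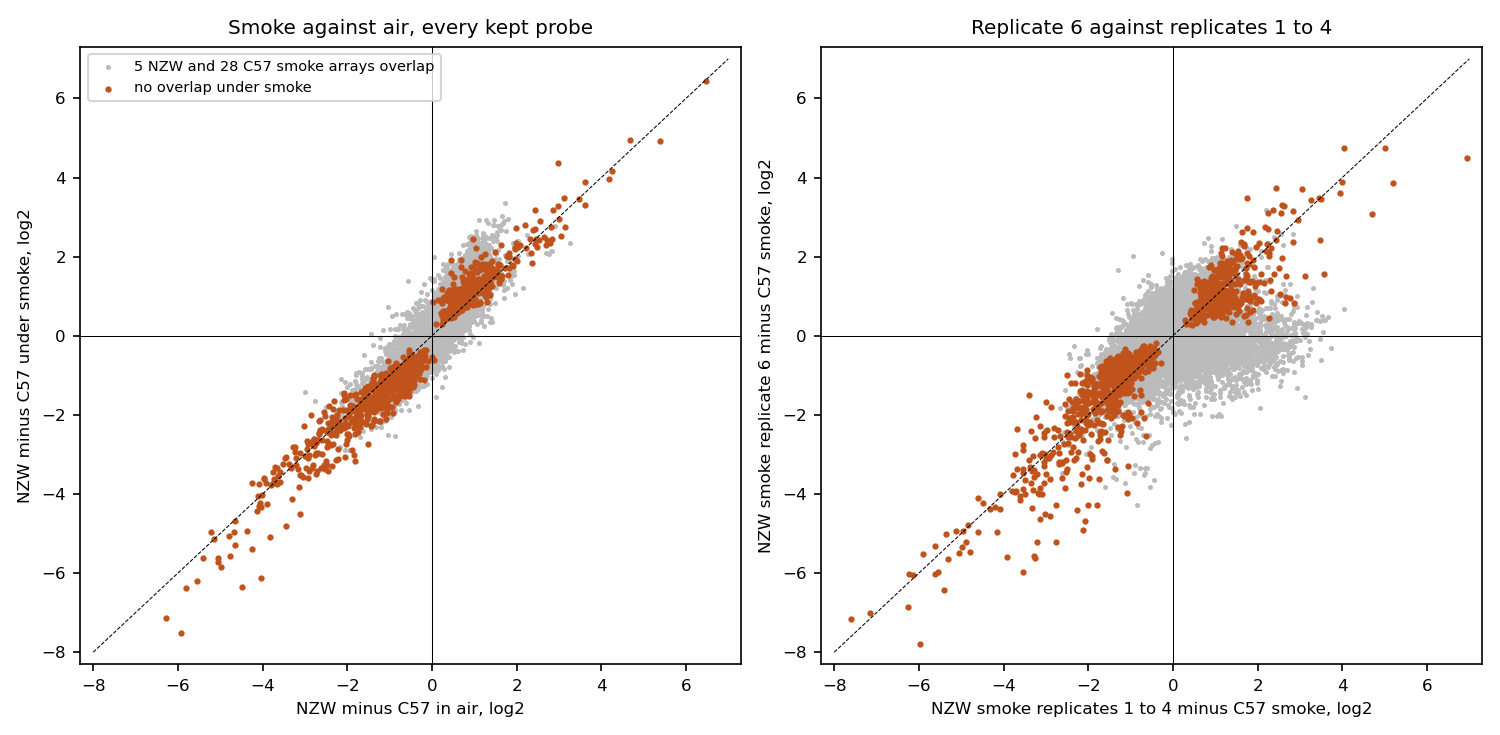
Left, the NZW minus C57 difference under smoke against that in air for each of 15540 probes, both on the log2 scale. Right, NZW smoke replicate 6 minus the C57 smoke mean against the mean of replicates 1 to 4 minus the same C57 mean, so both axes share the C57 arrays. Orange marks the 1066 probes whose groups did not overlap under smoke; a cloud of grey probes is high in replicates 1 to 4 and near the C57 mean in replicate 6.

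The genes highest in NZW fell into those that all 5 arrays shared and those that replicate 6 did not share. Psca, a surface antigen of prostate and other epithelia, read 9.79, 9.82, 10.08, 10.17 and 9.7 in NZW and 4.59 to 6.35 in C57 smoke, median 4.9. The difference was 4.95 ± 0.13, and 4.68 in air. With every array kept under its label the Psca difference under smoke was 4.12 with an adjusted p of 3.91e-22. Avpr1a, the V1a vasopressin receptor, had 2 probes, both without overlap: the brighter read 9.74, 9.52, 10.06, 10.31 and 10.61 against 4.79 to 7.38, a difference of 4.18 ± 0.24, and the dimmer, detected on no C57 smoke array, was at least 2.05-fold higher in NZW. Both probes of Ccdc190, a coiled-coil protein, were higher in NZW without overlap, by 3.97 and 3.29. Aspg, an asparaginase, was 3.49 ± 0.22 higher and the probe of the adult globin gene Hbb-b2 4.93 ± 0.39 higher, again without overlap. The alpha globin Hba-a1, near the top of the scale on every array, differed by -0.05 with an adjusted p of 0.616. Psca, Aspg and Hbb-b2 have 1 kept probe each, and whether bases under these probes differ between the strains was not tested.

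Some genes of acute-phase proteins and of iron handling were among the larger rises. The acute-phase glycoproteins Orm1 and Orm2 and the fibrinogen-like protein Fgl1 were higher in NZW by 3.46 ± 0.39, 2.95 ± 0.31 and 3.27 ± 0.26, and none overlapped with C57 under smoke. Hamp2, one of the mouse hepcidins, which restrain iron release from cells, read 9.97, 8.86, 10.75, 8.5 and 7.9 against 4.4 to 6.32 in C57. Its difference of 4.38 ± 0.27 lay above the 2.98 of air, and the difference between these differences, 1.4, had an adjusted p of 0.0218, or 0.0868 without NZW air replicate 6. That value was 1.12 with an adjusted p of 0.508 under the term for the consecutive arrays. Hamp, the main hepcidin in liver, differed by 2.44 ± 0.55 with overlap, and by 1.5 with an adjusted p of 0.164 under the term. Alad and Alas1, which catalyse early steps of heme synthesis, were 1.8 ± 0.11 and 1.08 ± 0.11 higher without overlap. Lcn2, lipocalin 2, an acute-phase protein that binds iron-carrying siderophores, went the other way and was lower by 1.54 ± 0.32 with overlap. Of 20 heme, iron and metallothionein genes measured, 7 were called higher and 3 lower, near the shares over all genes, and 5 and 3 under the term.

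The other large rises rested on replicates 1 to 4. Huwe1, a ubiquitin ligase, read 10.4, 10.55, 10.77 and 10.24 on replicates 1 to 4 and 7.29 on replicate 6, where the C57 smoke arrays ran from 5.06 to 8.65 with a median of 7.02. Its difference of 3.03 ± 0.39, adjusted p 1.13e-10, was 0.81 with an adjusted p of 0.229 under the term for the consecutive arrays, and the 2 NZW air arrays of the run read 10.18 and 10.47 against at most 8.42 on the other NZW air arrays. Ddx3x, an RNA helicase, Pam, which amidates peptide hormones, and Ptpra, a receptor tyrosine phosphatase, behaved in the same way, with replicate 6 at 8.26, 6.27 and 6.65 inside the C57 ranges and adjusted p-values of 0.65, 0.403 and 0.319 under the term. Nampt, which makes nicotinamide mononucleotide, gave 2.52 ± 0.33 and 1.08 ± 0.21 at its 2 probes, and 0.67 and -0.3 with adjusted p-values of 0.255 and 0.401 under the term. For these genes the strain and the run of sample numbers cannot be told apart under smoke.

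The largest falls were shared by all 5 arrays. Fcer1g, the signalling chain shared by several Fc receptors, read 4.33, 4.41, 4.44, 4.51 and 4.57 in NZW and 10.41 to 12.48 in C57 smoke, median 11.67. It was detected on none of these NZW smoke arrays and on all 28 C57 arrays, and NZW was at least 66.1-fold lower. With every array kept under its label the Fcer1g difference was -6.02 with an adjusted p of 6.13e-23. Sspn, sarcospan of the dystrophin complex, was at least 32.5-fold lower, Abhd16a, a lipid hydrolase, at least 30.3-fold, and Mrpl52, a protein of the mitochondrial ribosome, at least 19.4-fold. Each of the 3 was detected on no NZW smoke array and on every C57 smoke array. Of 15540 probes kept, 95 were detected on all 28 C57 smoke arrays and on none of the 5 NZW arrays, and 12 were the reverse. These counts cannot be set against each other, since the reverse asks for no detection on 28 arrays rather than on 5. Fcer1g, Sspn, Abhd16a and Mrpl52 have 1 kept probe each, so no other probe shows whether the transcript itself was low; whether bases under these probes differ between the strains was not tested.

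Genes with several probes showed how far the probes of a gene agreed. Of 2898 genes with at least 2 kept probes, every probe was called in the same direction in 685 (23.6%), 229 higher and 456 lower. Some but not all probes were called, without conflict, in 1290 (44.5%), and no probe was called in 524 (18.1%). Probes were called in opposite directions in 399 (13.8%). Of 373 such genes with at least 1 probe whose groups did not overlap, 139 had another probe that was not called and 77 another probe that was called the other way. Over all kept probes 57% were called, 26.9% higher and 30% lower, so such other probes are common among all probes. These counts cannot show whether a given probe lies over a strain variant. In 49 genes every probe separated the groups in the same direction, 8 higher and 41 lower in NZW.

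Ctsc, which encodes cathepsin C, the protease that activates granzymes and neutrophil serine proteases, is an example where all probes agreed in direction. Its brightest probe read 6.52, 6.17, 6, 6.77 and 6.76 in NZW against 11.94 to 12.9 in C57 smoke, and its 3 probes were lower by 5.84 ± 0.15, 5.56 ± 0.14 and 4.93 ± 0.18. The 3 probes of Chil3, the chitinase-like protein Ym1 of alveolar macrophages, were lower by 7.52 ± 0.36, by 6.34 ± 0.51 and, where no NZW smoke array detected it, by at least 21.7-fold. The brightest read 5, 4.31, 4.36, 7.05 and 5.63 against 11.94 to 13.8. Both probes of St7l were lower without overlap, by 4.31 and 3.71.

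Other genes split by probe. Mgst1, a microsomal glutathione transferase, read 13.19, 13.24, 13.4, 12.96 and 13.1 at its brightest probe against a C57 median of 13.13, a difference of 0.09 ± 0.12 with an adjusted p of 0.532. Its other probe read 5.47, 5.67, 6.15, 5.86 and 4.78 against a C57 range of 10.17 to 12.14, a difference of -5.62 ± 0.22 without overlap. Zfp330, a zinc finger protein, was at least 31.8-fold lower at the brightest probe, which was detected on no NZW smoke array, and lower by 0.93 at the other. Me1, malic enzyme, was higher by 1.1 at one probe, with replicate 6 at 7.61 below the other NZW arrays and a difference of -0.15 under the term, and at least 4.09-fold lower at the other, which was detected on no NZW array. The 5 probes of Mtus1, a microtubule-associated protein, had measured differences from -4.96 (at least 15-fold lower, detected on no NZW smoke array) to 1.45 (at least 1.52-fold higher, detected on no C57 smoke array), and the 5 of Klc1, a kinesin light chain, from -3.34 to 0.27. Lypla1, a lysophospholipase, was lower by 1.24 at the brightest probe and higher by 2.51 at the other, where replicate 6, at 5.67, lay inside the C57 range. Even Actb, the cytoplasmic actin often used as a reference, had called probes on either side of 0 (2.09 and 2.13 higher, 2.09 lower) beside a brightest probe at 0.32 that was not called.

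**Figure D3:**
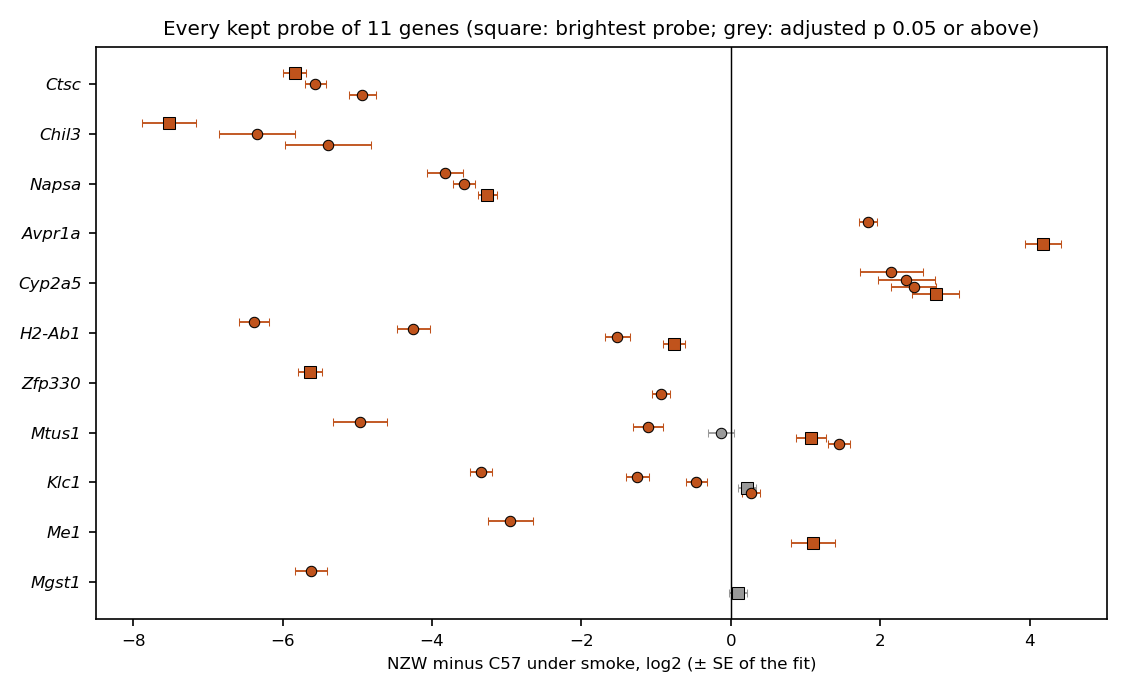
NZW minus C57 under smoke on the log2 scale with the SE of the fit (horizontal axis) for every kept probe of 11 genes, 1 gene per row. Squares are the brightest probes and grey probes did not pass the threshold. The probes of Ctsc, Chil3, Napsa, Avpr1a and Cyp2a5 lie on the same side of 0, whereas the probes of Mgst1 lie at 0.09 and -5.62 and those of H2-Ab1 run from -0.76 to -6.38.

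MHC class II molecules present peptides to helper T cells; H2-Ab1 and H2-Aa pair into I-A and H2-Eb1 and H2-Ea into I-E, Cd74 is their invariant chain, the DM and DO chains edit the bound peptide, and Ciita is the co-activator that switches the group on through a conserved promoter block that includes the Y box. The promoters of H2-Aa and H2-Eb1, one gene of each pair, are shown as the reference sequence of that block. H2-Eb1 was lower in NZW and H2-Aa was not called, and the letters were looked at in these promoters only. The 250 bases before the start of each gene are given 5′ to 3′ on the gene's strand from RefSeq's GRCm38.p6 assembly, with the Y box letters CTGATTGG in capitals.
H2-Aa, chr17:34287824-34288073, minus strand: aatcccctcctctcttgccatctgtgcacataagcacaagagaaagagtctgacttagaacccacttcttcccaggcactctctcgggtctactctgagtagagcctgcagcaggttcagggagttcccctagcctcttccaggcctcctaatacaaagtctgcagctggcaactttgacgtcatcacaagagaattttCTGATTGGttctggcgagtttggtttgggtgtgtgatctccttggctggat
H2-Eb1, chr17:34305617-34305866, plus strand: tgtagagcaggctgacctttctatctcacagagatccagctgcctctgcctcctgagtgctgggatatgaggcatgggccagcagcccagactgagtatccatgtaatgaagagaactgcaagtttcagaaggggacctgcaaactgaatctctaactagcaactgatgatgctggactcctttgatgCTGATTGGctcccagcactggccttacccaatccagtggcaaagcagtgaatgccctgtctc
These letters, on either strand, stand in 3.83% of 32851 promoter windows of 250 bases. These are reference letters, and the promoters of the NZW animals were not analysed here.

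Of 12 MHC class II genes measured, 9 were called lower in NZW and 1, H2-Ea, higher, against 27.1% lower and 29.5% higher over all genes, and the median difference was -0.86 against 0.02 over all genes. Cd74 read 12.6, 12.3, 12.6, 12.38 and 12.44 against 13.16 to 14.61 in C57, lower by 1.45 ± 0.14 without overlap, and its other probe was lower by 1.33 ± 0.16. H2-DMa, H2-DMb2, H2-DMb1 and Ciita were lower by 1.4, 2.23, 0.77 and 0.94, all without overlap, and H2-Oa by 1.41 with overlap, where the adjusted p under the term was 0.0536. H2-Eb1 was lower by 0.97 ± 0.17, with the groups overlapping. The 4 probes of H2-Ab1 were all called lower but by very different amounts, 0.76 ± 0.15 at the brightest, then 1.52 ± 0.17, 4.25 ± 0.22 and 6.38 ± 0.2. H2-Aa read 11.91, 11.66, 11.99 and 11.63 on replicates 1 to 4 and 8.83 on replicate 6, against 9.6 to 11.66, and was not called (0.34, adjusted p 0.447), but under the term for the consecutive arrays it was called lower, by 1.43. With that term 8 class II genes were called lower and 1 higher, and in air 10 were lower and 1 higher.

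Among 23 MHC class I and peptide-loading genes, 12 were called lower and 4 higher, with a median of -0.52, and 7 and 3 under the term. H2-Q5, a class I gene of the Q region, read 9.58, 8.58, 8.87, 8.56 and 8.57 against 4.45 to 6.08, higher by 3.89 ± 0.17. The class I gene H2-M2 and the immunoproteasome subunit Psmb9 were lower by 2.74 ± 0.38 and 3.07 ± 0.2, neither overlapping with C57. Tap2, one chain of the peptide transporter, was higher by 1.42 ± 0.17, and Calr, the chaperone calreticulin, lower by 1.89 ± 0.33, or -0.61 with an adjusted p of 0.339 under the term. In the order of genes along the chromosome, H2-DMa, H2-DMb2, H2-DMb1 and Psmb9 were consecutive measured genes that all separated the groups on the lower side, the longest such run. A second run, of 3 genes, held Fcer1g, lower, beside Adamts4 and B4galt3, both higher. Of 730 genes whose brightest probe separated the groups, 16.4% had a measured neighbour that did so too, against 12.9% of the other genes.

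Type 2 alveolar cells make surfactant and renew the alveolar lining. Of 21 surfactant and type 2 cell genes, 15 were called lower in NZW and 1 higher, with a median of -1.45, and 14 were called lower under the term for the consecutive arrays and 15 in air. For 9 genes the groups did not overlap, all lower in NZW, against 4.05% of all genes. The 3 probes of Napsa, which encodes napsin A, a protease that processes surfactant protein B, were lower by 3.26 ± 0.13, 3.82 ± 0.24 and 3.57 ± 0.15. Lamp3, a lamellar body protein, had 2 probes at -3.34 and -3.6, and Chia1, acidic chitinase, 2 probes at -3.41 and -5.09, none overlapping. The lysozyme gene Lyz2 was lower by 3.26 ± 0.2, 2.16 ± 0.55 and 1.19 ± 0.35 at its 3 probes, and only the brightest separated the groups. Sftpc, the surfactant protein that defines these cells, read 13.42, 13.4, 14.01, 14.4 and 13.51 against 13.92 to 14.88, lower by 0.71 ± 0.14 with overlap. The summed signal of the list, on the log2 scale, was 16.49 to 17.16 in NZW smoke and 17.48 to 17.87 in C57 smoke. Ager, which defines type 1 alveolar cells, differed by -0.24 with an adjusted p of 0.0873 at its brightest probe and by -0.59 with 0.00108 at the other.

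Alveolar macrophages clear inhaled particles and lipid and increase in number in smoke-exposed lungs. Of 14 alveolar macrophage genes, 8 were called lower and 2 higher, with a median of -0.98, 7 and 0 under the term, and the summed signal of the list was 12.67 to 13.52 in NZW smoke against 14.01 to 14.97 in C57 smoke. Beside Chil3, Krt79, a keratin gene on this list, was detected on no NZW smoke array and at least 9.56-fold lower. Cidec, a lipid droplet protein, was lower by 2.15 ± 0.26 without overlap. Marco, the scavenger receptor that defines these cells, read 4.46 to 5.38 in NZW smoke, detected on no array, against 5.01 to 7.38 in C57 smoke, with an adjusted p of 1.58e-08, and was at least 2.15-fold lower. Ear10, an eosinophil-associated ribonuclease, was at least 11.9-fold lower. Of 19 lysosomal and lipid-laden macrophage genes, 11 were called lower and 4 higher, and 6 and 1 under the term; Trem2, a lipid-sensing receptor, and Lgals3, galectin 3, were lower by 1.54 ± 0.29 and 1.18 ± 0.18 without overlap, and the adjusted p of Trem2 under the term was 0.055. With NZW air replicate 1 as the highest of its group at several of these probes, the air values of Chil3 in NZW spread from 4.44 to 9.05, still below the 12.06 to 14.66 of C57 air.

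Lists of other leukocytes departed from the shares over all genes to different extents. No gene of 16 neutrophil genes was called higher and 12 were called lower, with a median of -1.32, 8 under the term and 13 in air. S100a8, a calgranulin subunit that defines neutrophils, read 10.13, 8.92, 9.38, 10.94 and 9.88 against 11.79 to 14.31, lower by 3.36 ± 0.41 without overlap. Its partner S100a9 was lower by 2.33 ± 0.47, Il1b, interleukin 1 beta, by 2.08 ± 0.44, and the neutrophil chemokine receptor Cxcr2, detected on no NZW smoke array, by at least 3.61-fold. The list's summed signal was 12.1 to 12.82 in NZW smoke and 13.11 to 15.5 in C57 smoke. Of 18 Fc receptor and SLAM family genes, 14 were lower and 1 higher, but 6 under the term. Fcrla, a B cell protein like Fc receptors, was called lower at all 4 probes, by 2.86, 2.38 and 2.06 at 3 of them and by at least 1.33-fold at the fourth, detected on no NZW smoke array, and Fcgr2b, the inhibitory IgG receptor, at all 3, by 1.26 ± 0.2, by 1.11 ± 0.22 and at a probe that no NZW smoke array detected. Of 14 dendritic cell genes, 5 were called higher and 3 lower, near the shares over all genes, and 2 and 1 under the term. Their median of 0.29 was -0.12 under the term and -0.17 in air, where 4 were called higher and 5 lower. The list's summed signal was 11.28 to 11.82 in NZW smoke against 10.84 to 11.6 in C57 smoke. Of 19 B cell and plasma cell genes, 8 were lower and 0 higher, and 2 and 0 under the term.

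Among 26 T cell and natural killer (NK) cell genes, 14 were called lower and 3 higher, with a median of -0.57, and 7 and 2 under the term. Nkg7, a granule protein of killer cells, read 5.83, 5.38, 5.82, 5.35 and 6.77 against 6.87 to 9.92, lower by 3 ± 0.31 without overlap. Perforin, Prf1, was higher by 2.07 at its brightest probe and called lower at the other, which no NZW smoke array detected. Cd3e, which defines T cells, differed by -0.58 ± 0.26 with an adjusted p of 0.0529. The NK receptor Klra16 was higher at both probes, by 2.71 ± 0.18 and, where no C57 smoke array detected it, by at least 1.33-fold. Of 41 chemokines, cytokines and receptors, 17 were lower and 5 higher, and 14 and 2 under the term. Ccl6, a chemokine of macrophages, read 6.19, 5.3, 5.7, 6.09 and 5.97 against 7.62 to 10.4, lower by 3.51 ± 0.36. Csf2, which encodes the growth factor GM-CSF on which alveolar macrophages depend, was detected on no NZW smoke array and at least 2.11-fold lower. Ccl5, a T cell chemokine, was lower by 2.1 ± 0.33.

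Smoke constituents meet a set of detoxifying enzymes, and members of it differed both ways. Adh7, a class IV alcohol dehydrogenase that oxidises retinol, read 4.33, 4.28, 4.31, 4.37 and 4.41 in NZW smoke, where no array detected it, against 9.25 to 11.49 in C57 smoke. NZW was at least 30.3-fold lower. In C57, Adh7 was 1.65 higher under smoke than in air (adjusted p 2.09e-12), and in NZW it differed by -0.42 (0.589). Aldh1a7, an aldehyde dehydrogenase, read 5.78, 5.04, 5.66, 5.09 and 5.06 against 9.3 to 11.07, lower by 4.95 ± 0.24. Its close relative Aldh1a1 was higher by 1.27 ± 0.26, with replicate 6, at 11.92, inside the C57 range, and its difference was 0.14 under the term. Akr1c14, an aldo-keto reductase, was higher by 2.15 ± 0.33 and 2.68 ± 0.31 at its 2 probes, and by 0.32 and 0.3 under the term. Of 20 genes of carbonyl, aldehyde and alcohol metabolism, 7 were called higher and 8 lower, and 2 and 4 under the term.

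The cytochrome P450 Cyp2a5, which oxidises nicotine and coumarin, was higher at all 4 probes, by 2.74 ± 0.32, 2.15 ± 0.42, 2.35 ± 0.38 and 2.45 ± 0.3. The brightest read 14.28, 13.81, 14.37, 13.3 and 13.47 against 9.97 to 12.49 without overlap, and the strain difference in air was 3.15. Such probes may share sequence with the near copies of this gene family, so the source gene is uncertain. Of 21 P450, UGT and carboxylesterase genes, 10 were called higher and 4 lower, and 6 and none under the term. Ces1g, a carboxylesterase, was higher by 1.32 ± 0.16, with replicate 6 at 5.27 inside the C57 range.

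Cyp1b1 is shown with its promoter because it is the smoke marker and a target of the AhR; the AhR core motif GCGTG, read on either strand, is in capitals.
Cyp1b1, chr17:79715062-79715311, minus strand: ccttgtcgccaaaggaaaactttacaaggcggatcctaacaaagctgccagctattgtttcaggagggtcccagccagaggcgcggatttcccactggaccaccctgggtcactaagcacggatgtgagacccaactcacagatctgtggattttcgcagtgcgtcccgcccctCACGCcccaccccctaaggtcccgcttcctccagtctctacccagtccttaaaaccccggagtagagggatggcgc
This motif stands in 28.2% of the same 250-base windows, and a match is a description of the letters only. Of 9 AhR pathway genes, 2 were higher in NZW under smoke, Cyp1b1 and the AhR repressor Ahrr (1 ± 0.21), and 1 was lower; none was called under the term for the consecutive arrays or in air. Under the term the Cyp1b1 difference was 0.93 with an adjusted p of 0.301. Cyp1a1, the other classical AhR target, rose under smoke in both strains, by 1.87 and 2.31, and its strain difference of 0.44 had an adjusted p of 0.254.

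The factor NRF2 drives the antioxidant response to smoke. Of 24 NRF2 and glutathione genes, 7 were called higher in NZW and 5 lower, with a median of -0.07, and 3 and 4 under the term. Nqo1, a quinone reductase and a standard NRF2 target, read 7.54, 7.76, 7.83, 8.19 and 7.55 against 7.09 to 9.45 and differed by -0.46 ± 0.33 (adjusted p 0.241); it rose under smoke in both strains, by 2.25 in C57 and 1.93 in NZW. Srxn1, sulfiredoxin, which repairs oxidised peroxiredoxins, was lower at all 3 probes, by 3.27 ± 0.24, 2.3 ± 0.27 and 1.14 ± 0.33, and the first 2 separated the groups. In air the brightest Srxn1 probe was 2.56 lower. Txnrd1, thioredoxin reductase, was higher by 2.34 ± 0.27, with replicate 6, at 5.95, inside the C57 range, and by 0.48 with an adjusted p of 0.27 under the term. Of 14 peroxidases, dismutases and catalase, 9 were lower and 2 higher, and 5 and 0 under the term; Gpx1, glutathione peroxidase, and Sod3, extracellular superoxide dismutase, were lower by 0.95 ± 0.12 and 1.14 ± 0.16 without overlap. Prdx1, peroxiredoxin 1, was lower by 0.81 at its brightest probe and higher by 1.43 at the other. Catalase, Cat, was higher by 1.34 ± 0.27 and by 0.69 with an adjusted p of 0.186 under the term.

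Emphysema is a loss of alveolar walls in which proteases, their inhibitors and matrix take part. Slpi, the secretory leukocyte protease inhibitor of airway fluid, read 6.14, 5.92, 5.65, 5.75 and 5.42 in NZW against 9.99 to 12.01 in C57 smoke, lower by 5.14 ± 0.32, and by the same 5.14 in air. Ctse, cathepsin E, and Adamts4, an aggrecan-cleaving protease, were higher by 2.75 ± 0.3 and 1.41 ± 0.18 without overlap. Mmp3, stromelysin 1, was lower by 1.24 and 1.53 at 2 probes without overlap and differed by 0.02 at the third. The neutrophil elastase inhibitor Serpinb1a was lower by 1.48 ± 0.22. Mmp12, the macrophage elastase whose loss protects mice from smoke-induced emphysema, read 7, 6.67, 6.87, 8.57 and 4.42 against 4.62 to 8.69, higher by 1.12 ± 0.45 with an adjusted p of 0.0283, while the difference was -0.33 with 0.741 under the term. Replicate 6 lay below every C57 array. Of 30 proteases and inhibitors, 6 were called higher and 4 lower, and 3 and 4 under the term.

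Of 30 elastic fibre, collagen and matrix genes, 16 were called higher and 5 lower, with a median of 0.37, 10 and 2 under the term, and in none did the groups fail to overlap. The fibrillar collagen gene Col3a1 read 9.41, 9.31, 9.45 and 9.3 on replicates 1 to 4, 6.42 on replicate 6 and 4.84 to 7.49 on C57 smoke arrays. Its difference of 2.31 ± 0.41 was 0.16 with an adjusted p of 0.855 under the term, and its other probe, near background, differed by -0.12. Col1a2, of type I collagen, gave 1.84 ± 0.32 and -0.17 under the term, and the matrix protein Spon1 2.23 ± 0.4 and 0.33. Elastin, Eln, did not follow these genes: it read 10.36, 9.99, 10.15, 9.8 and 10.35 against 7.42 to 10.49, higher by 1.26 ± 0.25 and by 1.1 with an adjusted p of 0.0207 under the term.

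Of 19 club cell and secretory genes, 11 were called higher and 1 lower, with a median of 0.64, and 4 and 1 under the term. The total under the term was near the share over all genes. The secretory protein Bpifb1 spread from 9.72 to 13.55 in NZW smoke and from 4.55 to 11.85 in C57 smoke, with differences of 2.35 and 2.06 at its 2 probes and adjusted p-values of 0.121 and 0.176 under the term, and Scgb1a1, which defines club cells, lay at 15.49 to 15.58 in NZW, at the top of the scale, with a difference of 0.17 and an adjusted p of 0.0756. Of 17 ciliated cell genes, 10 were higher and 3 lower, and 4 and 1 under the term. That total under the term was likewise near the share over all genes. Rsph1, of the ciliary radial spoke, was higher by 1.43 ± 0.18 without overlap. Foxj1, the transcription factor that defines these cells, was higher by 0.41 ± 0.18, and Sntn, of the ciliary tip, by 2.66 ± 0.39 and 2.24 ± 0.25 at its 2 probes, with replicate 6, at 6.65 for the brighter, inside the C57 range, and 0.92 and 0.51 under the term, neither called.

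Of 24 cardiac and skeletal muscle genes, 13 were called higher and 1 lower, with a median of 1.26 that was 1.57 under the term, where 9 and 0 were called. The heart markers varied widely within each group. Myh6, the atrial myosin heavy chain, read 11.97, 11.02, 12.03, 9.59 and 11.16 against 4.61 to 10.4 at the brighter probe, with differences of 2.55 ± 0.75 and 2.17 ± 0.31 at its 2 probes. Myl7, the atrial light chain, read 13.07, 11.43, 12.8, 11.23 and 11.74 against 6.35 to 12.21. The atrial peptide gene Nppa spread from 6.36 to 13.13 in NZW and from 4.4 to 10.96 in C57 and was not called (1.53, adjusted p 0.212). Acta1, skeletal actin, was higher by 2.78 ± 0.35, and the sarcomere protein Tmod4 was higher at all 3 probes, by 2.5, 2.24 and 1.21. Myl3, a ventricular light chain, was instead lower by 2.88 ± 0.65, and it and Myl7 had adjusted p-values of 0.128 and 0.104 under the term. The list's summed signal was 14.27 to 16.14 in NZW smoke and 11.93 to 15.26 in C57 smoke; how much heart or muscle tissue each sample carried was not tested.

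**Figure D4:**
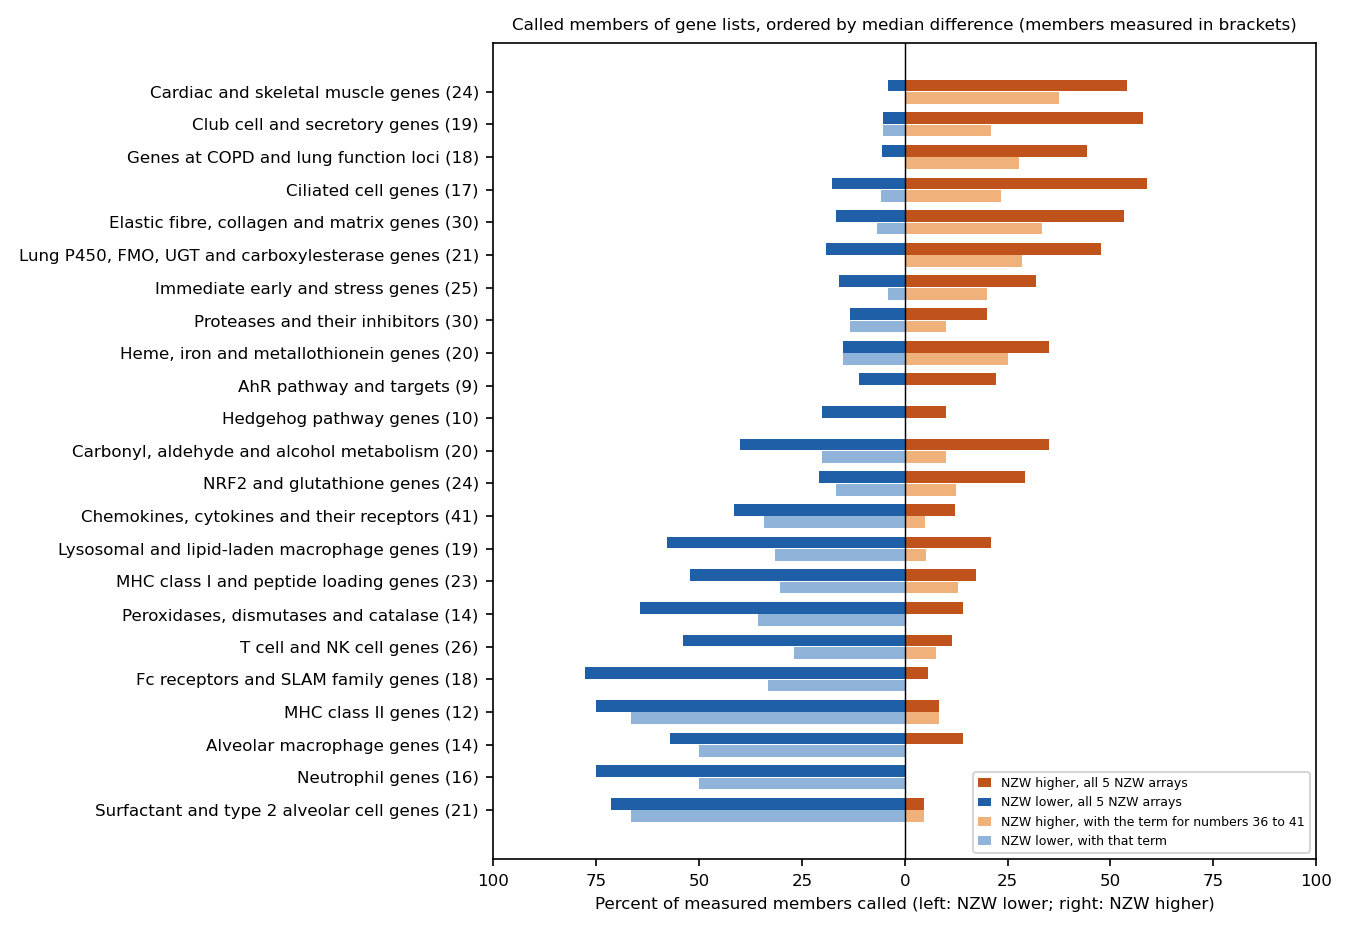
Share of the measured members of 23 gene lists called higher (right) or lower (left) in NZW under smoke, in percent, with all 5 NZW arrays (dark bars) and with a term for the arrays numbered 36 to 41 (light bars). Over all genes 29.5% were called higher and 27.1% lower; 15 of 21 type 2 cell genes and 12 of 16 neutrophil genes were called lower and 13 of 24 muscle genes higher.

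Fam13a and Hhip, the genes altered in the other mice of the series, lie at human COPD risk loci. Fam13a read 8.29, 8.52, 8.74 and 8.73 on NZW replicates 1 to 4, 5.68 on replicate 6 and 4.98 to 7.26 in C57 smoke. Its difference of 1.92 ± 0.35, adjusted p 2.19e-06, was -0.02 with an adjusted p of 0.981 under the term for the consecutive arrays. Hhip, which binds and restrains Hedgehog ligands, read 7.15, 6.81, 6.91, 7.97 and 6.65 against 5.51 to 7.39, higher by 0.53 ± 0.19 (adjusted p 0.012), by 1.04 in air and by 0.16 with an adjusted p of 0.705 under the term. Of 10 Hedgehog pathway genes, 1 was higher, Hhip, and 2 lower, the ligand Shh (by 0.35, and -0.18 with an adjusted p of 0.47 at its other probe) and the target Foxf1 (by 0.78), and none was called under the term. Of 18 genes at COPD and lung function loci, 8 were called higher and 1 lower, and 5 and 0 under the term; Rarb, a retinoic acid receptor, was higher at both probes, by 1.34 ± 0.18 and 1.93 ± 0.24, and Rin3, an endosomal regulator, by 0.9 ± 0.19, or 0.64 with an adjusted p of 0.0701 under the term. The list's median of 0.5 was -0.01 under the term.

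The last question was whether the strain difference itself changed with smoke. The difference between the strain difference under smoke and that in air passed the threshold at 275 probes (1.77%), 148 (0.952%) positive and 127 (0.817%) negative, and 171 of them were also called in air. The count was 20 with the term for the consecutive arrays and 15 probes were called by both, 90 without NZW air replicate 6, and 1406 without NZW smoke replicate 6. Atf3, an early stress transcription factor, read 8.45, 9.86, 8.34, 6.6 and 8.24 in NZW smoke against 6.12 to 7.24 in NZW air, and 5.83 to 7.96 in C57 smoke against 5.79 to 8.32 in C57 air. Its strain difference was 1.95 ± 0.38 larger under smoke, with an adjusted p of 0.00137, and 2.07 with 0.0082 under the term. Per1, a clock gene that glucocorticoids also induce, gave 1.35 ± 0.24 and 1.57, with adjusted p-values of 0.000244 and 0.000643, and its second probe gave 1.15. Mpp3, a scaffold protein, gave 1.56 and 1.72, and Insyn2b 0.62 and 0.59, each called with and without the term. With median scaling Per1 (adjusted p 0.108) and Insyn2b (0.202) did not pass, nor did Insyn2b with every array kept under its label (0.105). With replicate 6 as the only NZW smoke array Atf3, Per1 and Mpp3 did not pass, with adjusted p-values of 0.247, 0.125 and 0.0538. No C57 smoke array detected Insyn2b, which was at least 1.38-fold higher in NZW under smoke.

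Ptgs2, the inducible cyclooxygenase, read 6.79, 7.19, 5.75 and 6.88 on NZW smoke replicates 1 to 4, 4.44 on replicate 6, and 4.48 to 5.27 in NZW air. Its value of 1.27 ± 0.21, adjusted p 9.93e-05, was 0.7 with 0.194 under the term. Shh was 0.73 lower under smoke than in air in NZW and 0.37 higher in C57, a difference of -1.1 ± 0.18 with an adjusted p of 9.93e-05, and -0.8 with 0.0604 under the term; its second probe gave -1.29. The Adh7 value was -2.07 ± 0.4 with an adjusted p of 0.00111, -1.77 with 0.00952 without NZW air replicate 6, and -1.86 with 0.0537 under the term, with the NZW side below detection on all smoke arrays and on 6 of 7 air arrays. Arf4, Slc35f5, Sh2d3c and Zc3h6 gave 0.96, 1.29, 1.23 and 1.45, and none passed under the term. For Cyp1b1 the difference was 1.44 ± 0.61 with an adjusted p of 0.212, and for H2-Ea -0.02 with 0.988. Of 25 immediate early and stress genes, 8 were called higher in NZW under smoke and 4 lower, 5 and 1 under the term, and in air 3 and 7; Egr1, an immediate early factor, was 1.47 higher under smoke, or 1.07 with an adjusted p of 0.0999 under the term, and differed by -0.04 in air. The change between smoke and air had an adjusted p of 0.0588.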

How the data were processed

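RNA of 109 mouse lungs was measured on Illumina bead arrays of 25697 probes. Per the file headers, the authors deposited for each array a non-normalized bead intensity and a detection p-value per probe, and a second table of normalized values. The deposited normalized values lie on a log2 scale, judged from their range, with column medians of 7.21 to 7.22; the sources used here do not give their normalization or centring, and they served as an alternative only. Each of the 109 normalized columns correlated best by rank with the intensities of its own array.

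The intensities of all arrays were background-corrected with their detection p-values, quantile-normalized and put on the log2 scale by neqc (offset 16, limma 3.58.1, R 4.3.3, R package data.table, version 1.17.8). Probes with a detection p under 0.01 on at least 5 arrays were kept (15540 probes, 10555 genes). One limma model with a mean for each of 8 groups was fitted to 107 arrays (99 residual degrees of freedom), so all groups shared the estimate of spread. P-values were adjusted by Benjamini-Hochberg over all kept probes, with a threshold of 0.05, and every adjusted p printed comes from these limma fits. Arrays numbered 43 and 58, the replicates 5 of the NZW smoke and air groups, were left out. An adjusted fit added a term for the arrays numbered 36 to 41. Replicate numbers follow the order of the sample records and pair nothing. A group was called not detected where no array of it passed the detection p, and its fold is then a bound: the mean of the detected group against, on each array of the other, the higher of the lowest detected signal and the probe's own.

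Symbols came from the platform annotation, updated through gene identifiers of the GRCm38.p6 RefSeq annotation for 23962 probes and transcript accessions for 9, and kept for 7; 1719 probes had none. The brightest kept probe represents a gene in lists. The method was tested on simulated data. Members and gene lists were chosen with earlier results of these data known. Genes named were H2-Ea, Cyp1b1, Hhip and Fam13a; members of the 15 largest rises and 15 largest falls without a probe of opposite sign; of the 10 largest each way among genes whose several probes all passed; of 8 genes whose probes disagreed; the 10 smallest adjusted p of the smoke-dependent strain difference; and up to 5 called members and the defining members of each list described. Cyp1a1, Nqo1, the DM genes, Prf1, Hba-a1 and B4galt3 belong to described lists or runs of neighbouring genes, and some, like Lcn2, were chosen after their values were seen. The number of arrays limits the precision.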

Additional observations from a re-analysis of the deposited data

Results flagged for a closer look

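In small groups the array farthest from the others was compared with the range of its group, a test that by chance picks out about 1 group in 20. In the NZW smoke group replicate 6 was that array for 18 of the genes named. It read below the other 4 arrays for H2-Ea (9.09 against 11.06 to 11.77), Fam13a (5.68 against 8.29 to 8.74), Hbb-b2 (10.25), Huwe1 (7.29), Ptpra (6.65), Nampt (7.57), Me1 (7.61) and H2-Aa (8.83). The same held for Aldh1a1 (11.92), Akr1c14 (5.77), Ces1g (5.27), Txnrd1 (5.95), Prdx1 (11.63), Cat (9.76), Col3a1 (6.42), Col1a2 (6.1), Slc35f5 (4.5) and Sh2d3c (5.3). Replicate 6 is the array outside the sample numbers 36 to 41, and what sets it apart was not tested.

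In the NZW air group, replicate 6 stood above the others for genes that were low in NZW, at 8.08 for Fcer1g, 7.44 for Sspn, 6.54 for Adh7, 9.27 for Ctsc, 6.95 for Abhd16a and 7.19 for Zfp330. Replicate 1 of that group stood above the others for Ear10 (6.99), Krt79 (8.48), Lamp3 (10.42) and Ccl6 (8.74) and below them for Tap2 (9.97). Single arrays stood apart for Hhip in NZW air (replicate 3, 8.45), Nqo1 and Nppa in NZW air (replicate 4, 5.03 and 4.43), Krt79 in NZW smoke (replicate 3, 5.19) and Lypla1 in NZW smoke (replicate 4, 7.94).

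The strain difference differed between smoke and air, by the limma test of that difference, for 16 of the genes named. It was larger in smoke, on the NZW side, by 1.95 for Atf3, 1.6 for Nampt, 1.56 for Mpp3, 1.45 for Zc3h6, 1.4 for Hamp2, 1.35 for Per1, 1.34 for Txnrd1, 1.29 for Slc35f5 and 1.27 for Ptgs2. The values were 1.23 for Sh2d3c, 0.96 for Arf4, 0.95 for Ces1g and 0.62 for Insyn2b. On the negative side they were -2.07 for Adh7, -1.1 for Shh and -0.85 for Ctsc. Without NZW air replicate 6, Hamp2, Nampt, Txnrd1 and Ctsc no longer passed, with adjusted p-values of 0.0868, 0.17, 0.142 and 0.0868. Of these genes only Atf3, Per1, Mpp3 and Insyn2b passed under the term for the consecutive arrays. There Nampt was 0.41, Txnrd1 0.15, Ces1g 0.6, Hamp2 1.12 and Ctsc -0.47, with adjusted p-values of 0.895, 0.957, 0.57, 0.508 and 0.668. With replicate 6 as the only NZW smoke array Nampt, Txnrd1, Ces1g, Ptgs2, Slc35f5 and Sh2d3c were -0.61, -0.68, -0.22, -0.5, -0.53 and -0.24, and the others kept their sign.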

How the results depend on the processing

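The filters changed how many probes were tested between the strains under smoke. Without a filter on dim probes 9343 of 25697 were called (36.4%). With detection required on every array of a compared group 7041 of 11289 were called (62.4%), against 57% of 15540 in the main fit. The strain difference under smoke, 8851 probes, gave 6839 to 9343 under the other normalizations, filters, weights and sets of arrays, and 7679 to 8744 with each NZW smoke array left out in turn. It moved further with the arrays numbered 36 to 41: 4357 with a term for them, 2500 with replicate 6 as the only NZW smoke array and 2563 with none of them. A requirement of a 2-fold difference left 2549. Genes with every kept probe called the same way, 4908, became 2440, 1353 and 1385 under those 3 settings, and smoke calls shared with air, 5967, became 3579, 2044 and 2035. The share of calls higher in NZW was 47.3%, and 39.9% with median scaling, 54.3% with the term, 56.3% with replicate 6 alone and 56.4% without arrays 36 to 41.

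The 275 probes whose strain difference changed with smoke became 97 with only the 4 wild-type groups, 48 with all arrays by label, 36 with median scaling, 461 with the deposited normalized values, 140 with probes detected on every array of a compared group and 49 with array weights. They became 20 with the term, 36 with replicate 6 alone, 17 without arrays 36 to 41 and 90 without NZW air replicate 6. Leaving out each NZW smoke array gave 54 to 1406: 111 without replicate 1, 54 without replicate 2, 84 without replicate 3, 442 without replicate 4 and 1406 without replicate 6. The causes were not tested.

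Of 126 genes named, 92 gave the same result with the term. Such a gene stayed on its side of the threshold and, if called, kept its direction. A change of sign was not counted for genes called in neither fit. With the term, Fam13a was -0.02, Me1 -0.15, H2-Aa -1.43, Col1a2 -0.17, Mmp12 -0.33 and Shh 0.11, opposite in sign to the values reported. With replicate 6 alone, and likewise without arrays 36 to 41, the opposite values were -0.39, -0.95, -2.04, -0.29, -1.17 and 0.12 for those genes, -0.35 for Aldh1a1, -0.44 for Akr1c14, -0.06 for Col3a1, -0.3 for Ptgs2 and -0.15 for Slc35f5. Under the remaining settings no gene that was called in either fit changed sign. The setting with probes detected on every array of a compared group covered 116 of the genes named. A lone array is assumed to vary like the other groups, and alternatives on replicate 6 alone, arrays 36 to 41, the 2-fold requirement, NZW air replicate 6 and C57 smoke replicate 6 were chosen after seeing the data. No paired analysis was possible because the labels carry no replicate numbers. Signals near background limit what low probes can show.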
